A study of Mus musculus with 12 samples.

Results

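Retroperitoneal white fat (RWAT) was set against inguinal white fat (IWAT) in 6 of the 12 libraries of the series, 3 from each depot, chosen by their titles. RWAT lies behind the abdominal cavity and IWAT under the skin of the groin. The samples came from male wild type C57BL/6J mice on a high-fat rodent diet, and the design text gives an age span of 6 to 10 weeks. Each of the 12 libraries, including the 3 of epididymal white fat (EWAT) and the 3 of interscapular brown fat (BAT), carries a denervation label. No intact fat was analysed here, so the values describe denervated depots, and the effect of cutting the nerves was not tested. The labels do not say whether replicates were separate animals or pools, so p-values measure the spread between these samples, which may be technical. Total expected counts were 12933516 to 20798169 per RWAT library and 17064476 to 20457136 per IWAT library, and RWAT 3 was the shallowest of the 12.

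White adipocytes store triglyceride, make fatty acids from glucose and release leptin and adiponectin. In obesity, macrophages gather around dying adipocytes and take up their lipid. Homeobox (Hox) genes and T-box factors keep a record of body position, so that fat depots differ in them after development. Intra-abdominal depots are wrapped in mesothelium, a sheet of epithelium-like cells that subcutaneous fat lacks. RWAT is dissected next to the muscles of the back.

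No gene passed the threshold between RWAT and IWAT. The edgeR quasi-likelihood test with Benjamini-Hochberg (BH) adjustment called 0 of 18942 genes (0.00%), and the smallest adjusted p was 0.0804. At an unadjusted edgeR p below 0.05 there were 3745 genes (19.8%), with 1825 genes higher in RWAT (9.63%) and 1920 lower (10.1%). By limma-voom the count was 0, and by DESeq2 it was 1159, with 611 higher in RWAT (3.92% of the 15605 genes with an adjusted p) and 548 lower (3.51%). Of these 1159 genes, 1156 had an unadjusted edgeR p below 0.05. The 3 RWAT libraries all lay above the 3 IWAT libraries in 2089 genes (11.0%) and below them in 2870 (15.2%). The values below are therefore levels and log2 fold changes (RWAT minus IWAT, ± SE) of genes that missed the threshold. Levels are CPM, read counts relative to library size and scaled between libraries, in the order of libraries 1, 2 and 3. A count of list members is read against these shares, and the median log2 fold change of all genes was -0.01.

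Libraries stood apart in 3 ways. Skeletal muscle genes were high in RWAT 3 and RWAT 1 and low in RWAT 2, mesothelial genes were near the IWAT level in RWAT 1, and adipocyte genes were lowest in RWAT 2 and highest in IWAT 1. Actn3, the actinin of fast muscle fibres, stood at 40.5, 1.27 and 198 CPM in RWAT and 0.262, 0.0892 and 0.118 CPM in IWAT. Wt1, a transcription factor of mesothelium, stood at 0, 8.05 and 7.20 CPM in RWAT and 0.0654, 0 and 0.118 CPM in IWAT. Wt1 was thus present in RWAT 2 and RWAT 3 and at 0 counts in RWAT 1, which allows a level of up to 0.144 CPM. The mean log2 CPM of 24 adipocyte genes was 8.78, 7.23 and 8.61 in RWAT and 10.4, 9.59 and 9.85 in IWAT. Adipoq, which encodes adiponectin and marks adipocytes, was present in each library, at 877, 231 and 893 CPM in RWAT and 2157, 1719 and 2323 CPM in IWAT.

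**Figure D1:**
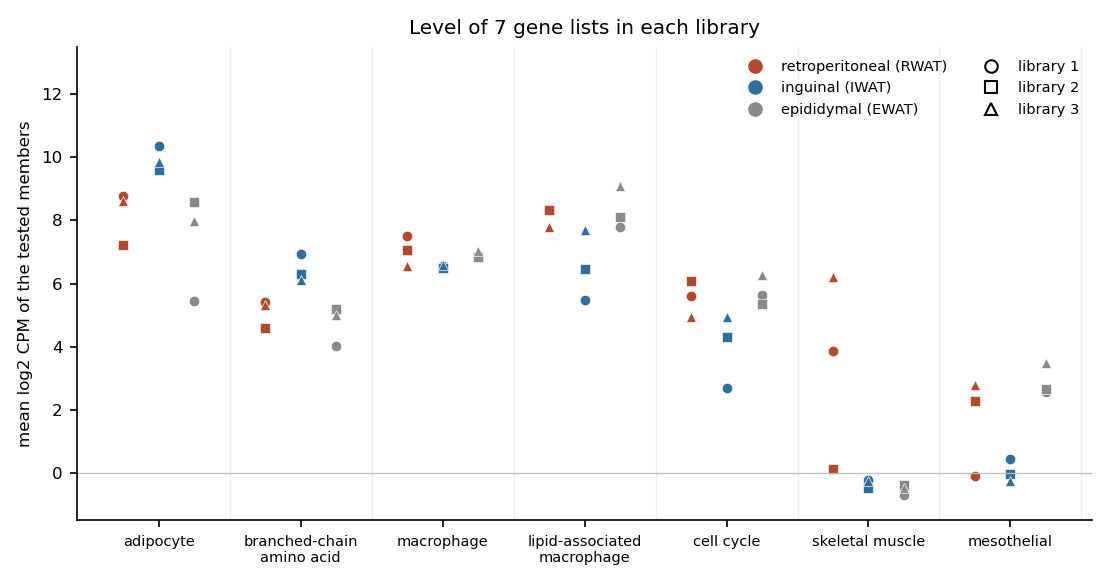
Mean log2 CPM of the tested members of 7 gene lists (y axis) in each library of RWAT, IWAT and EWAT, with marker shapes for libraries 1 to 3. Skeletal muscle genes stand at 3.85, 0.122 and 6.19 in RWAT and at -0.235 or below in IWAT, and RWAT 2 has the lowest adipocyte level of the 6 RWAT and IWAT libraries.

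The 20 genes with the smallest p, no overlap between the depots' libraries and at least 5 CPM in the higher depot comprised 18 higher and 2 lower in RWAT, and immune cell genes stood among the first. Cd300ld, a receptor of myeloid cells, stood at 92.6, 73.1 and 93.3 CPM in RWAT and 23.3, 23.7 and 33.7 CPM in IWAT. Its lowest RWAT library was over the highest IWAT library, and its log2 fold change was 1.68 ± 0.20 (by edgeR, BH-adjusted p = 0.0804). Clec4n encodes Dectin-2, a receptor for fungal sugars on myeloid cells, and stood at 38.8, 44.1 and 31.7 CPM in RWAT and 5.49, 4.24 and 4.77 CPM in IWAT. Its log2 fold change was 2.98 ± 0.43 (by edgeR, BH-adjusted p = 0.0824). In both genes every RWAT library was above every IWAT library. Msr1, a scavenger receptor for modified lipoproteins, stood at 188, 252 and 104 CPM in RWAT and 22.8, 30.2 and 48.5 CPM in IWAT. In Msr1 the depots were apart, and RWAT 3 was the lowest of its depot. Cd5l, a lipid-binding protein secreted by tissue macrophages, stood at 180, 62.6 and 39.5 CPM in RWAT and 7.39, 4.51 and 14.4 CPM in IWAT, so that RWAT 1 was far above the other two.

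The windows before the starts of 2 of these genes are shown for an ETS-family motif, GAGGAAGT, which PU.1, the transcription factor that directs myeloid development, can bind. The 250 bases before the RefSeq start (GRCm38.p6) were searched on both strands. The sequences are shown only up to the first base of a GENCODE M21 exon, which lies inside these windows, and capitals mark the match. They span chr11:114989923-114990136 on the minus strand and chr9:89199023-89199208 on the plus strand, each written 5′ to 3′ in the direction of the gene.
Cd300ld: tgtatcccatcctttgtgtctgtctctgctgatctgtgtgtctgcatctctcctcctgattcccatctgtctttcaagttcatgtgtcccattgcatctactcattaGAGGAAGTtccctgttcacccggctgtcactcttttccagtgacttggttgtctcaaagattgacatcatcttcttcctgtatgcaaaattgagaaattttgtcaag
Bcl2a1b: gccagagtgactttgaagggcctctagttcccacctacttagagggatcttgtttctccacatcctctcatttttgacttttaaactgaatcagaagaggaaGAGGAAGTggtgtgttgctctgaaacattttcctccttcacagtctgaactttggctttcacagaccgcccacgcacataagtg
Of the 20 genes, 14 had a window, and the others were not searched. These 14 had 16 windows, of which 2 (12.5%) held a match, as did 2.44% of 32851 windows of all genes. A match describes the letters and is not evidence of binding.

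Among the rest of the 20, Tfec, a transcription factor of macrophages related to Mitf, stood at 21.4, 18.4 and 16.8 CPM in RWAT and 3.79, 5.44 and 6.47 CPM in IWAT. Ccl12, a monocyte chemokine, stood at 12.4, 24.5 and 10.5 CPM against 3.79, 1.43 and 2.53 CPM. The depots were apart in both. Cd53 (a tetraspanin of leukocytes), Ms4a6d, Lair1 (an inhibitory receptor for collagen), Ap1s2, Gsap, Tmem37 and Cmtm7 had log2 fold changes of 1.86, 2.19, 1.57, 1.32, 1.21, 1.09 and 1.12, each with an edgeR BH-adjusted p of 0.125. Bcl2a1b and Naip5, with log2 fold changes of 2.80 and 0.95, belong to families of near-identical copies between which reads can be split. The largest posterior SD of their deposited counts over the RWAT and IWAT libraries was 0.0209 and 0.0123 of the largest count. Ddit4l, an inhibitor of mTOR signalling, stood at 3.14, 10.2 and 18.0 CPM in RWAT and 0.262, 0.268 and 0.412 CPM in IWAT (log2 fold change 5.03 ± 0.69, edgeR BH-adjusted p = 0.0824). The lowest RWAT library for Ddit4l was RWAT 1. Cox6a2, the muscle and brown fat form of a cytochrome c oxidase subunit, stood at 2.95, 1.23 and 11.1 CPM in RWAT and 0.262, 0.134 and 0.235 CPM in IWAT, in the same order of RWAT libraries as Actn3.

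The 2 genes of this group that were lower in RWAT were Pmepa1, an inhibitor of TGF-beta signalling, and Lzts2, which restrains beta-catenin. Pmepa1 stood at 73.8, 41.4 and 58.9 CPM in RWAT and 236, 155 and 125 CPM in IWAT (log2 fold change -1.57 ± 0.29, edgeR BH-adjusted p = 0.125). Lzts2 stood at 29.0, 22.7 and 31.0 CPM in RWAT and 63.0, 51.0 and 58.7 CPM in IWAT (log2 fold change -1.06 ± 0.19, edgeR BH-adjusted p = 0.125). In both genes every RWAT library was below every IWAT library. EWAT, an intra-abdominal depot, can be put beside these values, although its comparisons reuse the same RWAT and IWAT libraries. In EWAT, Cd300ld stood at 87.5, 96.9 and 70.3 CPM, Clec4n at 47.8, 21.4 and 17.3 CPM and Pmepa1 at 67.9, 61.3 and 44.6 CPM. Against EWAT the log2 fold change of Cd300ld was 0.02 in RWAT (by edgeR, BH-adjusted p = 0.999) and -1.66 in IWAT (edgeR BH-adjusted p = 0.00726). In all, 1 of 18942 genes was called between RWAT and EWAT (0.00528%) and 1710 between IWAT and EWAT (9.03%).

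**Figure D2:**
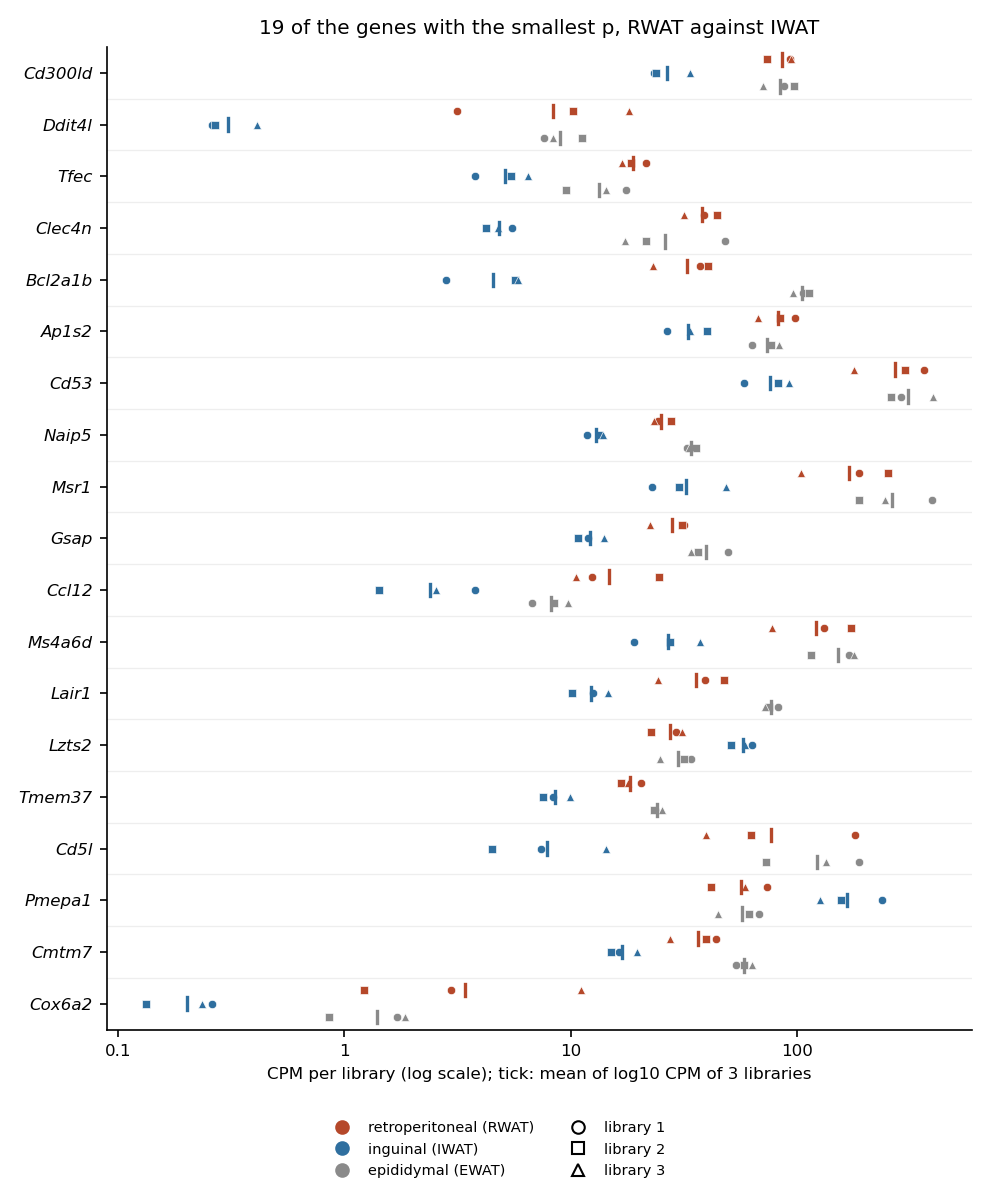
CPM in each library (x axis, log scale) of 19 of these 20 genes, with 1 row per gene, colours for depots, shapes for libraries 1 to 3 and a tick at the mean of log10 CPM. The RWAT and IWAT points do not overlap in these genes by the rule that chose them, and Ddit4l runs from 3.14 to 18.0 CPM within RWAT.

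The macrophage list had members in both directions. Of its 20 genes, 10 had an unadjusted edgeR p below 0.05 and were higher in RWAT and 1 was lower, against 9.63% and 10.1% of all genes, with a median log2 fold change of 1.05. The RWAT libraries were all higher in 6 genes and all lower in 1. In bulk tissue, a different number of cells and a different amount of RNA per cell cannot be told apart. Lyz2, the lysozyme of macrophages, stood at 4315, 2847 and 3814 CPM in RWAT and 1431, 1298 and 1544 CPM in IWAT (log2 fold change 1.36 ± 0.33, edgeR BH-adjusted p = 0.130). Fcgr3, a receptor for the constant part of antibodies, stood at 300, 241 and 206 CPM in RWAT and 86.2, 107 and 134 CPM in IWAT (log2 fold change 1.19 ± 0.24, edgeR BH-adjusted p = 0.125). Both genes were higher in 3 of 3 RWAT libraries than in any IWAT library. The count of 10 was 5 without RWAT 1 and 6 without IWAT 1 or without IWAT 2, with list medians of 0.83, 0.98 and 0.83.

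Some macrophage genes were uneven within RWAT, and RWAT 3 was near the IWAT level. Fcgr1 stood at 94.2, 83.1 and 29.0 CPM in RWAT and 13.1, 19.1 and 26.7 CPM in IWAT, and Fcgr4 at 40.2, 34.1 and 9.32 CPM and 5.30, 5.89 and 9.89 CPM. Ccr2, the receptor that brings monocytes into tissue, stood at 327, 295 and 68.6 CPM in RWAT and 98.5, 85.7 and 71.7 CPM in IWAT. In Fcgr4, RWAT 3 lay below IWAT 3, and in Ccr2 it lay below each IWAT library. The member with a p below 0.05 that was lower in RWAT was Retnla, a product of alternatively activated macrophages, at 128, 10.3 and 22 CPM in RWAT and 406, 334 and 118 CPM in IWAT (log2 fold change -2.42 ± 1.05, edgeR BH-adjusted p = 0.236). Cd163 and Timd4, receptors of resident macrophages, had log2 fold changes of -0.80 ± 0.54 and -2.03 ± 1.21 (by edgeR, BH-adjusted p = 0.436 and 0.372). Cd163 stood at 189, 122 and 189 CPM in RWAT and 352, 270 and 250 CPM in IWAT, with no overlap. Ccr2, Retnla, Cd163 and Timd4 were chosen after their values were seen.

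Lipid-associated macrophage genes, which mark macrophages that have taken up lipid in obese fat, stood higher in RWAT in 15 of 16 tested members (49.3% of all genes), with a median of 1.18. Of the 16, 7 had an unadjusted edgeR p below 0.05 and were higher in RWAT and 0 were lower. Spp1, which encodes osteopontin, stood at 1086, 2121 and 625 CPM in RWAT and 12.4, 34.2 and 118 CPM in IWAT. The lowest RWAT library was above the highest IWAT library, and the log2 fold change was 4.54 ± 1.02 (by edgeR, BH-adjusted p = 0.128). Mmp12, the macrophage elastase, stood at 314, 358 and 794 CPM in RWAT and 11.1, 117 and 137 CPM in IWAT. The tetraspanin genes Cd63 and Cd9 had log2 fold changes of 0.78 ± 0.23 and 0.93 ± 0.34 (by edgeR, BH-adjusted p = 0.153 and 0.186). Spp1 and Mmp12 were lowest in IWAT 1, the library with the highest adipocyte level, and without IWAT 1 the list's median was 0.86. The count of 7 was 3 without RWAT 1, 4 without RWAT 2, IWAT 1 or IWAT 2 in turn, and 12 without IWAT 3.

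Secreted signals of inflammation followed in the adipokine and complement lists. Of 23 adipokine genes, 5 had an unadjusted edgeR p below 0.05 and were higher in RWAT and 6 were lower, with a median of -0.28. The count of 6 was 3 without RWAT 2 and 1 without IWAT 1. Ccl2, the chemokine that draws monocytes, stood at 187, 249 and 81.4 CPM in RWAT and 7.71, 39.7 and 50.5 CPM in IWAT (log2 fold change 2.40 ± 0.64, edgeR BH-adjusted p = 0.142). Tnf, an inflammatory cytokine, stood at 5.51, 8.41 and 2.96 CPM against 1.11, 1.29 and 2.35 CPM, and Il6 at 1.16, 4.91 and 1.06 CPM against 0.196, 0.535 and 0.235 CPM. The depots did not overlap in Ccl2, Tnf or Il6. Metrnl, a hormone of muscle and fat, had a log2 fold change of 1.18 ± 0.35. Lep, which encodes leptin, stood at 633, 192 and 672 CPM in RWAT and 1277, 469 and 1375 CPM in IWAT, and the depots overlapped (log2 fold change -1.06 ± 1.11, edgeR BH-adjusted p = 0.633).

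In the complement list of 21 genes, 3 were higher and 5 lower in RWAT at an unadjusted edgeR p below 0.05, with a median of -0.91. The count of 5 was 1 without RWAT 2, RWAT 3 or IWAT 2 in turn and 2 without IWAT 1, and the count of 3 was 1 without RWAT 1, RWAT 2 or IWAT 2 in turn. C3ar1, the receptor for the fragment C3a on myeloid cells, stood at 485, 501 and 228 CPM in RWAT and 69.4, 88.4 and 173 CPM in IWAT. C1qb, a recognition subunit made by macrophages, stood at 563, 470 and 306 CPM against 277, 215 and 290 CPM. C1ra, a protease of the first complement complex, stood the other way at 74.4, 41.3 and 60.6 CPM against 160, 198 and 116 CPM (log2 fold change -1.43 ± 0.41, edgeR BH-adjusted p = 0.151). None of these 3 genes overlapped between the depots. Interferon-stimulated genes had 1 of 22 higher (Oas1a, log2 fold change 1.13 ± 0.45) and 0 lower at an unadjusted edgeR p below 0.05. For 9 genes of antigen presentation by MHC class II, the counts were 0 and 0.

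Cell cycle genes stood higher in RWAT in each of the 22 tested, with a median log2 fold change of 1.34. At an unadjusted edgeR p below 0.05, 17 of 22 were higher and 0 lower, against 9.63% and 10.1% of all genes, and the depots were apart in 12. DESeq2 called 2 of the 22 at an adjusted p below 0.05. Pcna, the sliding clamp of DNA replication, stood at 187, 186 and 131 CPM in RWAT and 56.5, 55.0 and 91.1 CPM in IWAT (log2 fold change 1.32 ± 0.38, edgeR BH-adjusted p = 0.151). Bub1, a kinase of the spindle checkpoint, stood at 23.2, 35.8 and 17.2 CPM in RWAT and 1.77, 8.70 and 11.1 CPM in IWAT (log2 fold change 1.82 ± 0.58, edgeR BH-adjusted p = 0.162). The list's mean log2 CPM was 5.61, 6.07 and 4.94 in RWAT and 2.68, 4.31 and 4.93 in IWAT. RWAT 3 and IWAT 3 were thus nearly level, and IWAT 1 was the lowest. The count of 17 became 7 without IWAT 1 (median 0.98), 2 without RWAT 2 (median 1.05), 9 without IWAT 2 and 1 with the adipocyte score as a covariate. Without RWAT 1 and RWAT 3 the median was 1.87, but RWAT 2 is then alone in its depot, and its spread is assumed to be that of the other depots. Macrophage and adipocyte levels differed between the same libraries, and their part in the cell cycle values was not tested beyond that covariate.

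The window before Bub1 is shown for the CCAAT box, which is common before genes of mitosis. Up to the first GENCODE exon it lies at chr2:127831866-127832109 on the minus strand, and capitals mark its 2 matches to CCAAT, of which one is on the opposite strand and reads as ATTGG.
Bub1: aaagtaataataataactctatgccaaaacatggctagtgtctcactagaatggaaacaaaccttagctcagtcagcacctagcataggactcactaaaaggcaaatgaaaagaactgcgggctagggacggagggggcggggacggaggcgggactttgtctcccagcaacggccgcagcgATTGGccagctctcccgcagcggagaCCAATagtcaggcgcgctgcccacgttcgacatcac
The letters CCAAT on either strand stood in 16 of the 19 windows of cell cycle genes and in 33.8% of all 32851 windows. TTTGAA, the core of the cell cycle homology region, stood in 7 of 19 windows and in 16% of all.

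Genes of hypoxia and glycolysis split. Of 21 tested, 5 were higher and 2 lower in RWAT at an unadjusted edgeR p below 0.05, with a median of 0.34. The count of 5 was 3 without IWAT 2, and the count of 2 was 0 without RWAT 2 or IWAT 3. Hilpda, a lipid droplet protein that inhibits lipolysis and is induced by hypoxia, stood at 64.0, 60.2 and 69.3 CPM in RWAT and 12.3, 13 and 27.4 CPM in IWAT (log2 fold change 1.88 ± 0.36, edgeR BH-adjusted p = 0.125). Slc16a3, the lactate exporter MCT4, stood at 55.0, 55.0 and 56.8 CPM in RWAT and 6.93, 10.6 and 10.3 CPM in IWAT (log2 fold change 2.58 ± 0.70, edgeR BH-adjusted p = 0.143). Its 3 RWAT libraries were nearly equal, whereas EWAT ranged from 34.7 to 277 CPM. In a fit of RWAT and IWAT alone, which leaves out the EWAT and BAT spread, Slc16a3 and Clec4n were the 2 genes called (edgeR BH-adjusted p = 0.0287 and 0.0216, 2 of 17827 genes, 0.0112%). Ankrd37 and Pgk1, a glycolytic kinase, had log2 fold changes of 2.22 ± 0.73 and 1.22 ± 0.41. The 2 lower genes were Epas1, the oxygen-sensing factor HIF-2 alpha, at 107, 116 and 119 CPM against 220, 222 and 260 CPM, and Ndrg1, with a log2 fold change of -0.86 ± 0.33. Epas1 and Ndrg1 were chosen after their values were seen.

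The windows of Slc16a3 and Ankrd37 are shown because each holds ACGTG, the core of the element that hypoxia-inducible factors bind, before the first GENCODE exon base of the window. They lie at chr11:120948817-120949052 (plus strand) and chr8:45999868-46000100 (minus strand), and capitals mark the match on the strand of the gene. Both lie inside the GENCODE span of the gene, whose longest transcripts start further upstream, and hold no GENCODE exon.
Slc16a3: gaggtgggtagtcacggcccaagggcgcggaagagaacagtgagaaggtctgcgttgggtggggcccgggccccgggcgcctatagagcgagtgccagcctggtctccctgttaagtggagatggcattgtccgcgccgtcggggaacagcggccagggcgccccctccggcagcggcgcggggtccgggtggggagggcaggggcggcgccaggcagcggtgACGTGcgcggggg
Ankrd37: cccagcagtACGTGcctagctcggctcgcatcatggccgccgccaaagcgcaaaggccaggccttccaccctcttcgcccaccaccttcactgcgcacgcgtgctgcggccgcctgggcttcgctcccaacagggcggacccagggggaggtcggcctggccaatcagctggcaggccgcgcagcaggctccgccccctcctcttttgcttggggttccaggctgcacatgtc
The element was searched on both strands and stood in 13 of 28 windows of the list (12 of the 19 genes with a window) and in 16.6% of all windows. Ldha and Aldoa also held it, and their log2 fold changes were -0.03 and -0.15.

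Immediate early genes, which cells turn on within minutes of a stimulus, stood higher in RWAT in 7 of 19 genes at an unadjusted edgeR p below 0.05 and lower in 0 (median 0.53). Nr4a1, an orphan nuclear receptor, stood at 8.75, 8.55 and 12.2 CPM in RWAT and 3.66, 5.49 and 3.77 CPM in IWAT (log2 fold change 1.19 ± 0.41, edgeR BH-adjusted p = 0.180). Myc and Klf6 had log2 fold changes of 1.01 ± 0.41 and 0.49 ± 0.19, and the depots were apart in these 3 genes. The count of 7 was 1 without RWAT 1, IWAT 1 or IWAT 2 in turn and 2 without RWAT 2.

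Adipocyte genes stood lower in RWAT throughout. Of 24 adipocyte genes, 0 had a log2 fold change above 0, 11 had an unadjusted edgeR p below 0.05 and were lower in RWAT, and in 19 each RWAT library was below each IWAT library, with a median of -1.70. Cebpa, a transcription factor that maintains the adipocyte state, stood at 225, 115 and 195 CPM in RWAT and 672, 415 and 437 CPM in IWAT (log2 fold change -1.51 ± 0.40, edgeR BH-adjusted p = 0.141). Retn, which encodes resistin, stood at 141, 27.7 and 150 CPM in RWAT and 1585, 303 and 324 CPM in IWAT. Agpat2, an enzyme of triglyceride synthesis whose loss causes lipodystrophy, and Mgll, which releases the last fatty acid from glycerol, had log2 fold changes of -2.59 ± 0.93 and -1.33 ± 0.51 (by edgeR, BH-adjusted p = 0.185 and 0.198). Without RWAT 2 the count of 11 was 2 (median -1.36), without IWAT 1 it was also 2 (median -1.42), and without RWAT 3 it was 5 (median -1.87).

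Fatty acid and triglyceride synthesis followed the same direction, with IWAT 1 far above the rest. Of 19 genes of fatty acid synthesis, 8 were lower and 0 higher in RWAT at an unadjusted edgeR p below 0.05 (median -1.52). Fasn, fatty acid synthase, stood at 351, 139 and 165 CPM in RWAT and 10533, 591 and 487 CPM in IWAT. Its log2 fold change of -4.15 ± 1.3 was -1.3 without IWAT 1. Acaca, which makes malonyl-CoA, stood at 149, 88.3 and 97.8 CPM in RWAT and 1586, 320 and 203 CPM in IWAT, and Srebf1, the factor that turns these genes on, at 140, 67.1 and 94.1 CPM and 394, 260 and 212 CPM. The log2 fold change of Srebf1 was -1.52 ± 0.36 (by edgeR, BH-adjusted p = 0.128), and that of Slc25a1, which exports citrate from mitochondria, was -2.22 ± 0.64. Without IWAT 1 the list's median was -0.69 with 4 genes lower at an unadjusted edgeR p below 0.05, and without IWAT 3 there were 13.

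Of 12 genes of triglyceride synthesis, 10 were lower and 1 higher in RWAT at an unadjusted edgeR p below 0.05 (median -1.52). Gpat4, which adds the first fatty acid to glycerol phosphate, stood at 91.0, 75.4 and 67.5 CPM in RWAT and 151, 136 and 128 CPM in IWAT (log2 fold change -0.83 ± 0.19, edgeR BH-adjusted p = 0.128). Bscl2, which encodes seipin of the lipid droplet, had a log2 fold change of -1.38 ± 0.40, and its depots were apart. Of 22 genes of lipolysis and the droplet, 11 were lower and 2 higher (median -1.35), with 3 lower without RWAT 2, 4 without IWAT 1 and 7 without RWAT 1. G0s2, an inhibitor of the lipase ATGL, stood at 82.8, 29.6 and 62.2 CPM against 561, 177 and 177 CPM. Of 21 cholesterol synthesis genes, 5 were lower and 1 higher, with a median of 0.07. Without RWAT 2 or RWAT 3 the lower ones were 2, without IWAT 1 they were 1, and the median ran from -0.28 to 0.52 over the left-out libraries. Sc5d, a desaturase of that pathway, had a log2 fold change of -1.45 ± 0.42.

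Catabolism of branched-chain amino acids, a fuel that adipocytes turn into lipid, had the most members at an unadjusted edgeR p below 0.05 among the metabolic lists. Of 20 genes, 17 were lower in RWAT and 0 higher, and each RWAT library was below each IWAT library in 18, with a median of -1.38. DESeq2 called 12 of the 20 lower. Ivd, isovaleryl-CoA dehydrogenase of the leucine pathway, stood at 66.2, 31.7 and 56.8 CPM in RWAT and 246, 169 and 120 CPM in IWAT (log2 fold change -1.79 ± 0.47, edgeR BH-adjusted p = 0.141). Slc25a44, the mitochondrial carrier that imports these amino acids, stood at 40.7, 29.2 and 30.8 CPM against 69.8, 54.3 and 56.6 CPM (log2 fold change -0.84 ± 0.23, edgeR BH-adjusted p = 0.148). Acadsb and Mut, enzymes of isoleucine and propionate breakdown, had log2 fold changes of -1.3 ± 0.39 and -1.44 ± 0.43. The count of 17 was 11 without RWAT 2, 9 without IWAT 1 and 3 with the adipocyte score as a covariate, where the median was -0.54.

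Genes of fatty acid oxidation and the TCA cycle stood lower in RWAT by smaller amounts. Of 22 genes of fatty acid oxidation, 12 were lower and 0 higher at an unadjusted edgeR p below 0.05 (median -1.06), and of 21 of the TCA cycle, 10 and 0 (median -0.91). Ehhadh, a peroxisomal enzyme of beta-oxidation, stood at 12.9, 7.77 and 12.5 CPM in RWAT and 44.8, 39.8 and 30.2 CPM in IWAT (log2 fold change -1.80 ± 0.46, edgeR BH-adjusted p = 0.138). Cpt2, which completes the entry of fatty acids into mitochondria, and Sdha, a subunit of succinate dehydrogenase, had log2 fold changes of -1.38 ± 0.47 and -1.25 ± 0.43, with the depots apart. Without IWAT 1 the TCA cycle list had 0 lower genes (median -0.47), without RWAT 2 it had 2 and without RWAT 3 it had 3. Pcx, pyruvate carboxylase, stood at 178, 79.1 and 199 CPM against 1313, 367 and 586 CPM. Of 35 nuclear genes of the respiratory chain, 3 were lower (8.57%, less than the 10.1% of all genes) and 0 higher (median -0.71). Without IWAT 1 their median was -0.15 with 0 lower, and with the skeletal muscle score as a covariate it was -1.23 with 16 lower. In BAT the mean log2 CPM was 2.77, 0.399 and -0.00665 for muscle genes and 7.59, 6.11 and 6.49 for these genes. BAT 1 was the highest BAT library in both, and its part in the count of 16 was not tested. The share of counts from the 13 mitochondrially encoded protein genes was 1.54 ± 0.236% in RWAT and 1.96 ± 0.314% in IWAT (SD, n = 3) (exact permutation test, two-sided, p = 0.2, smallest possible 0.1).

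Of 22 genes of insulin action and glucose use, 10 were lower and 2 higher in RWAT at an unadjusted edgeR p below 0.05 (median -1.09). Insr, the insulin receptor, stood at 101, 68.7 and 104 CPM in RWAT and 163, 220 and 194 CPM in IWAT (log2 fold change -1.08 ± 0.35, edgeR BH-adjusted p = 0.162). Pik3r1, Akt2 and Foxo1, which carry its signal, had log2 fold changes of -1.10 ± 0.31, -1.21 ± 0.40 and -1.29 ± 0.40, and the depots were apart in each. Of 21 genes of steroid enzymes and receptors, 8 were lower and 2 higher (median -0.66), and the 8 were 4 without RWAT 2 and 5 without IWAT 1. Hsd11b1, which regenerates active glucocorticoid inside the cell, stood at 21.4, 7.23 and 10.5 CPM against 102, 73.0 and 44.5 CPM (log2 fold change -2.49 ± 0.71, edgeR BH-adjusted p = 0.151). Nr3c2, the mineralocorticoid receptor, had a log2 fold change of -1.32 ± 0.39. Cyp7b1, an oxysterol hydroxylase, stood the other way, at 1.35, 6.68 and 1.82 CPM against 0.458, 0.803 and 1.18 CPM, with the depots apart. The clock genes Per1 and Nr1d1 stood at 26.3, 23.9 and 32.7 CPM and 21.3, 11.6 and 26.5 CPM in RWAT, and at 57.2, 44.4 and 48.6 CPM and 53.8, 52.7 and 45.8 CPM in IWAT. Of 18 clock genes, 5 were lower and 0 higher (median -0.61), with 2 without RWAT 2 and 3 without IWAT 2 or IWAT 3. The hour of sampling was not given in the sources used here.

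Of 7 adrenergic receptor genes tested, 2 were lower in RWAT at an unadjusted edgeR p below 0.05 and 0 higher (median -1.21). Adrb3, the beta receptor through which noradrenaline drives lipolysis, stood at 41.6, 8.55 and 80.0 CPM in RWAT and 120, 167 and 111 CPM in IWAT (log2 fold change -1.62 ± 1.25, edgeR BH-adjusted p = 0.501). Adra1d and Adrb1 had log2 fold changes of -1.17 ± 0.37 and -1.29 ± 0.57. Of 25 thermogenic genes, 2 were lower and 1 higher (median -0.78), and with the skeletal muscle score as a covariate 12 were lower and 0 higher (median -2.21). That covariate was fitted over all 12 libraries. In BAT the mean log2 CPM was 2.77, 0.399 and -0.00665 for muscle genes and 5.57, 1.56 and 2.02 for thermogenic genes. BAT 1 was thus the highest BAT library in both, and its part in the count of 12 was not tested. Prdm16, a coregulator of the beige programme, stood at 5.46, 2.96 and 4.40 CPM in RWAT and 12.8, 21.6 and 11.8 CPM in IWAT (log2 fold change -1.85 ± 0.49, edgeR BH-adjusted p = 0.142). Ucp1, the uncoupling protein of brown and beige fat, stood at 0.338, 1.5 and 0.455 CPM against 4.45, 8.66 and 1.53 CPM. The Ucp1 depots were narrowly apart, and with the log2 fold change of -2.63 ± 2.21 its edgeR BH-adjusted p was 0.542. The fit estimates the spread over all 12 libraries. In BAT, Ucp1 stood at 1489, 0.253 and 1.70 CPM, and this spread enters its SE and p. Slc36a2, an amino acid carrier of brown fat, had a log2 fold change of -1.83 ± 0.62.

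With the adipocyte score as a covariate, the number of genes at an unadjusted edgeR p below 0.05 was 1878 in place of 3745, and 0 were called. Adipoq, Lep and Adrb3 then had positive log2 fold changes of 0.57, 1.34 and 0.90, and Adipoq and Lep are themselves among the genes of the score. The list medians became -0.97 for fatty acid synthesis, -0.59 for triglyceride synthesis, -0.33 for fatty acid oxidation, -0.35 for insulin and glucose and -0.08 for thermogenic genes, against 0.99 for macrophage and 1.02 for lipid-associated macrophage genes. With 3 libraries per depot, the scores of the depots did not overlap, so adipocyte content and depot cannot be told apart. RWAT 2 and IWAT 1 also carried many of the lower genes at an unadjusted edgeR p below 0.05. Without RWAT 2 there were 1 for fatty acid oxidation, 4 for triglyceride synthesis, 5 for insulin and glucose and 2 for progenitor genes. Without IWAT 1 these numbers were 2, 4, 7 and 7, and without RWAT 3 fatty acid oxidation had 7 and progenitor genes 7.

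**Figure D3:**
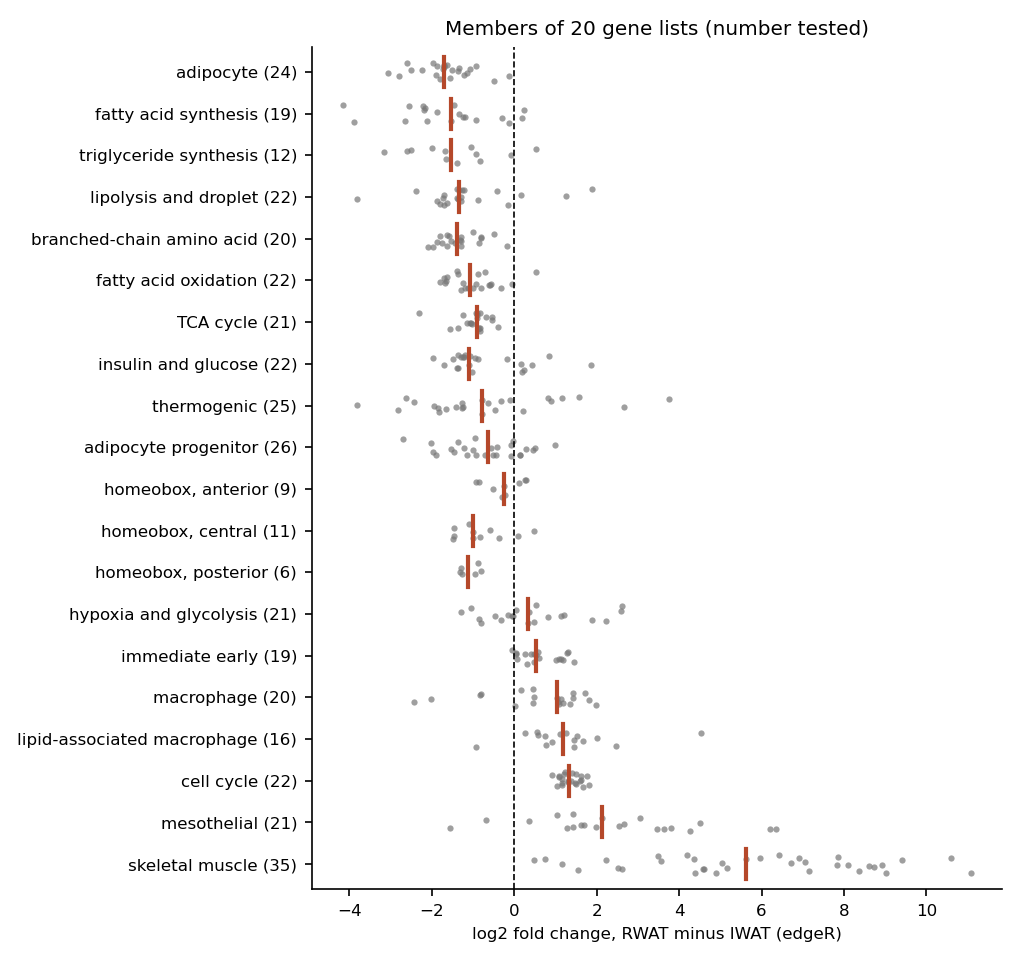
Log2 fold change, RWAT minus IWAT, of each tested member of 20 gene lists (x axis), with a bar at each list's median and a dashed line at the median of all genes. The 24 adipocyte genes lie at or below 0 with a median of -1.70, the 22 cell cycle genes lie above 0 with a median of 1.34, and the macrophage list spans both sides.

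**Figure D4:**
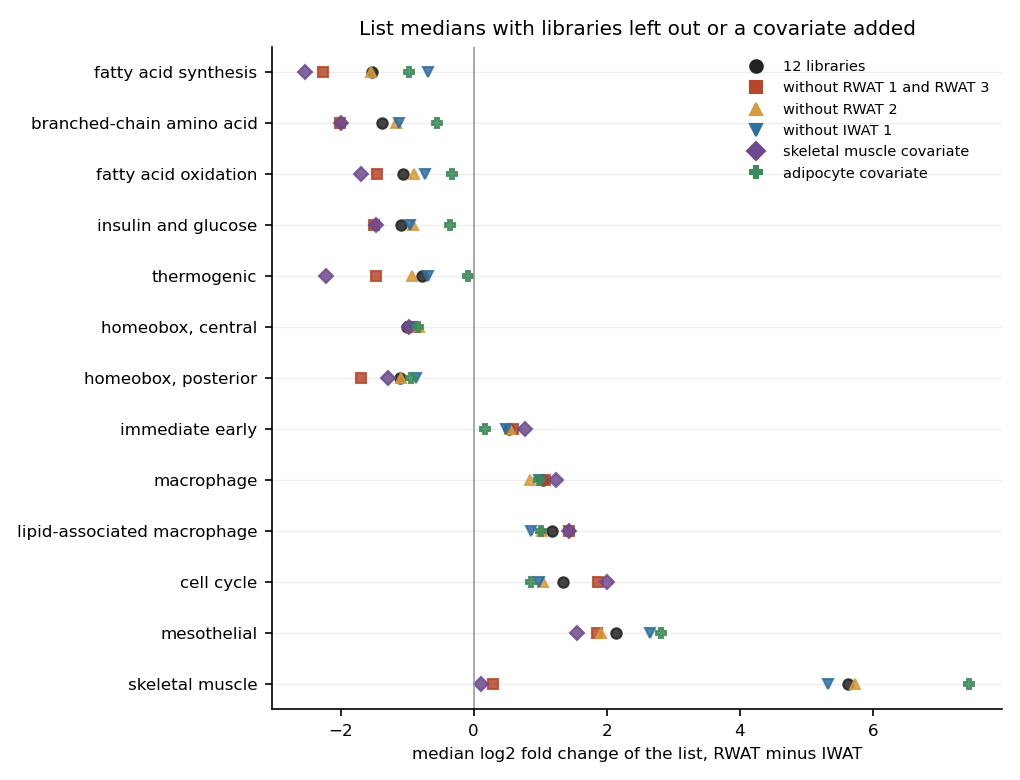
Median log2 fold change (x axis) of 13 gene lists in the fit of 12 libraries, in fits without RWAT 1 and RWAT 3, without RWAT 2 or without IWAT 1, and with the skeletal muscle or adipocyte score as a covariate. The skeletal muscle median goes from 5.62 to 0.30 without RWAT 1 and RWAT 3, and the medians of the macrophage list lie between 0.85 and 1.23 in the fits drawn.

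Hox genes with an unadjusted edgeR p below 0.05 were each lower in RWAT. Of 11 central Hox genes (groups 5 to 8), 4 were lower in RWAT at an unadjusted edgeR p below 0.05 and 0 higher (median -1.0), and of 6 posterior ones (groups 9 and above), 2 and 0 (median -1.11). The posterior count was 0 without RWAT 2, RWAT 3 or IWAT 1 in turn and 4 without IWAT 3. For the 9 anterior genes (groups 1 to 4), the counts were 1 and 0 (median -0.24). Hoxa7 stood at 3.19, 4.91 and 5.08 CPM in RWAT and 8.83, 10.6 and 8.83 CPM in IWAT (log2 fold change -1.10 ± 0.31, edgeR BH-adjusted p = 0.151), and Hoxc5 at 4.06, 2.91 and 6.75 CPM and 16, 13.6 and 8.06 CPM. Both were apart, whereas Hoxc8 overlapped, at 9.13, 7.05 and 18.0 CPM against 46.4, 30.2 and 17.7 CPM. The count of 4 was 2 without RWAT 1, RWAT 2, IWAT 1 or IWAT 2 in turn and 6 without RWAT 3, with medians from -1.24 to -0.73. Hoxb4 and Hoxb5 had log2 fold changes of -0.85 ± 0.27 and -1.48 ± 0.64. Hoxa10 stood at 7.44, 3.55 and 4.02 CPM against 23.6, 9.06 and 4.71 CPM, and Hoxc10 at 6.33, 3.00 and 3.41 CPM against 16.3, 10.3 and 4.94 CPM. In both, RWAT 1 was above IWAT 3, and their edgeR BH-adjusted p were 0.228 and 0.192.

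Of 44 other developmental factors tested, 18 had a log2 fold change above 0, with a median of -0.47. At an unadjusted edgeR p below 0.05, 6 were higher in RWAT (13.6%, Wt1, Tcf21, Bnc1, Zic1, Zic4 and Gata5) and 10 lower (22.7%). Of all genes, 9.63% were higher and 10.1% lower. The RWAT libraries were all higher in 3 of the 44 and all lower in 11, against 11.0% and 15.2% of all genes. Tbx15, a T-box factor that is high in some subcutaneous and brown depots, stood at 19.7, 4.82 and 10.8 CPM in RWAT and 22.8, 23.6 and 17.2 CPM in IWAT. The depots overlapped through RWAT 1, and the log2 fold change was -0.85 ± 0.40 (by edgeR, BH-adjusted p = 0.269). In EWAT, Tbx15 stood at 0.190, 0.285 and 0.147 CPM, and it was the 1 gene called between RWAT and EWAT (log2 fold change 5.80, edgeR BH-adjusted p = 0.00562). Against EWAT its log2 fold change in IWAT was 6.65 (by edgeR, BH-adjusted p = 0.00166), with the EWAT libraries shared by both comparisons. Twist1, a mesenchymal transcription factor, stood at 10.3, 9.18 and 10.2 CPM in RWAT and 29.2, 20.5 and 15.5 CPM in IWAT (log2 fold change -1.13 ± 0.27, edgeR BH-adjusted p = 0.133). Osr2, a zinc finger factor of limb and palate, stood at 1.64, 0.182 and 0.455 CPM against 6.08, 9.32 and 2.00 CPM, and Nr2f2, a nuclear receptor, at 9.71, 12.5 and 15.6 CPM against 20.5, 24.0 and 19.5 CPM. The depots were apart in Twist1, Osr2 and Nr2f2.

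**Figure D5:**
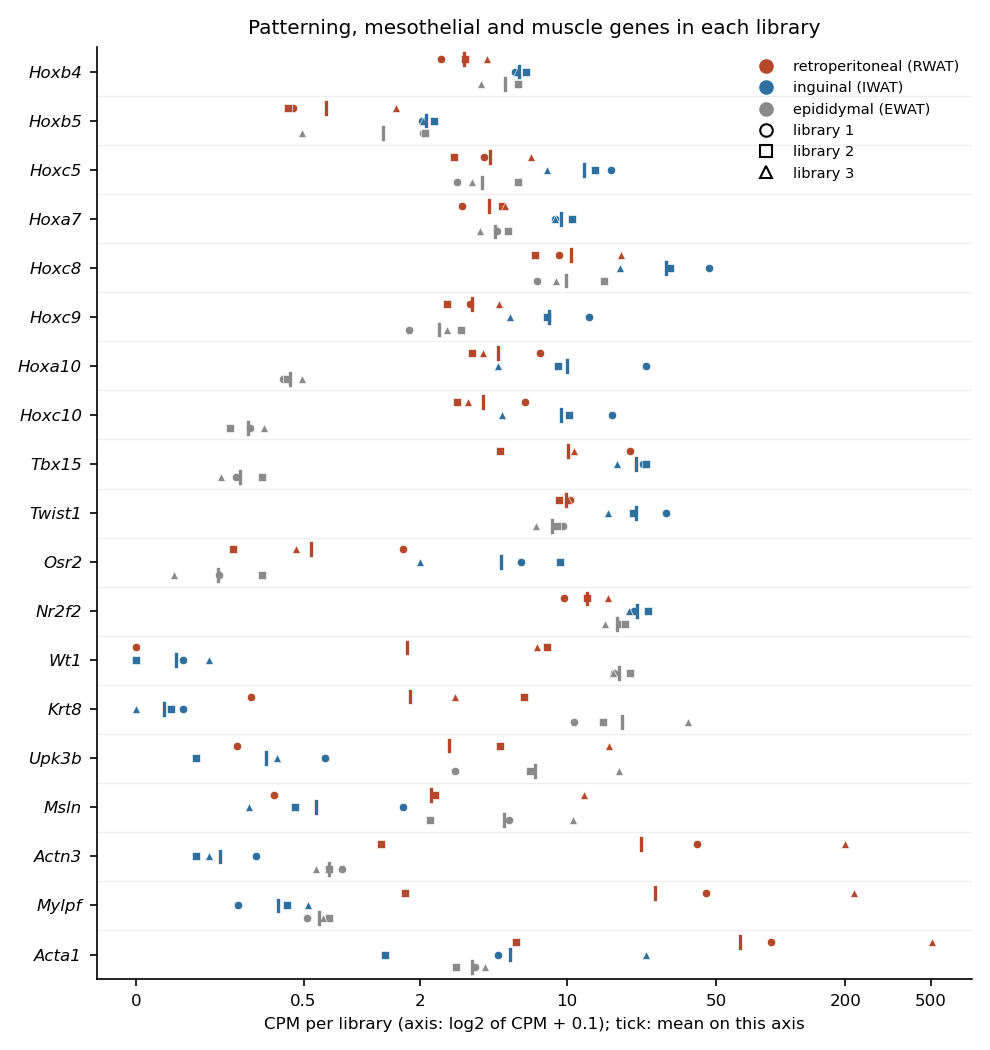
CPM in each library (x axis, log2 of CPM + 0.1) of positional, mesothelial and muscle genes, with 1 row per gene, colours for depots, shapes for libraries 1 to 3 and a tick at the mean on that axis. Wt1 is at 0 in RWAT 1 and at 8.05 and 7.20 CPM in RWAT 2 and RWAT 3, and Actn3 runs from 1.27 to 198 CPM within RWAT.

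The mesothelial list stood higher in RWAT by its members and lower by its summed counts. Of 21 genes, 11 were higher in RWAT at an unadjusted edgeR p below 0.05 and 1 lower, with a median of 2.14 that was 1.40 without RWAT 3. Their summed share of counts was 0.0578, 0.0474 and 0.0704% in RWAT and 0.123, 0.177 and 0.0925% in IWAT, a difference of -0.0725 percentage points (exact permutation test, two-sided, p = 0.1, the smallest possible). The lower gene was C3, complement component 3, which adipocytes also make, at 500, 293 and 518 CPM in RWAT and 1416, 1569 and 892 CPM in IWAT, and it was chosen after its values were seen. Without C3, the other 20 genes summed to 80.6, 125 and 172 CPM in RWAT and 42.3, 50 and 36.6 CPM in IWAT. Krt8, a keratin of simple epithelia, stood at 0.242, 6.27 and 2.96 CPM in RWAT and 0.0654, 0.0446 and 0 CPM in IWAT. Msln, which encodes mesothelin, stood at 0.338, 2.36 and 12 CPM against 1.63, 0.446 and 0.235 CPM, and Upk3b at 0.193, 4.82 and 15.8 CPM against 0.654, 0.0892 and 0.353 CPM. In Msln, Upk3b and Wt1, RWAT 1 lay within the range of IWAT or below it. Slpi, an inhibitor of neutrophil proteases, had a log2 fold change of 3.47 ± 0.93 (by edgeR, BH-adjusted p = 0.143).

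Where IWAT held 3 counts or fewer over its 3 libraries, the ratio of summed CPM is given with its 95% exact counting interval, which covers counting error only. For Wt1 it was 95 (32.2 to 463), with 272 counts in RWAT and 3 in IWAT, for Krt8 95.3 (26.0 to 793) and for Nkain4 23.4 (7.67 to 116). Without RWAT 1, Wt1 was called (log2 fold change 6.93, edgeR BH-adjusted p = 0.0301), as was Ddit4l (edgeR BH-adjusted p = 0.0213), 2 of 19541 genes. With the mesothelial score as a covariate, 1 gene was called higher in RWAT (Cd5l, 0.00528%) and 3 lower (0.0158%), and the list's median was -0.37.

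Skeletal muscle genes, read over the 3 libraries, had the highest median of the lists apart from their own fast-fibre subset, 5.62, and that value came from RWAT 1 and RWAT 3. The 40 listed genes took 0.133, 0.0194 and 0.772% of counts in RWAT and 0.00860, 0.00915 and 0.0117% in IWAT, a difference of 0.298 percentage points (exact permutation test, two-sided, p = 0.1, the smallest possible). Of the 35 that passed the filter on low counts, some could pass through RWAT alone and so had to differ, so their counts are no support. At an unadjusted edgeR p below 0.05, 32 of 35 were higher in RWAT and 0 lower, and the depots were apart in 13. Myh4, a myosin heavy chain of fast fibres, stood at 198, 0.318 and 889 CPM in RWAT and 0.719, 0.0446 and 0 CPM in IWAT, and it was chosen after its values were seen. Mylpf and Tnni2, the fast forms of a myosin light chain and of troponin I, stood at 44.6, 1.68 and 219 CPM and 31.6, 1.41 and 136 CPM in RWAT. In IWAT they were at 0.530 CPM or below and at 0.588 CPM or below. Acta1, the actin of skeletal muscle, stood at 90.0, 5.73 and 507 CPM in RWAT and 4.71, 1.34 and 23.4 CPM in IWAT, with overlap through RWAT 2. Cacna1s, the calcium channel that triggers contraction, had 730 counts in RWAT and 1 in IWAT, a ratio of 765 (137 to 30240, 95% exact counting interval).

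Of 13 fast-fibre genes, 12 were higher at an unadjusted edgeR p below 0.05 (median 7.83), and 2 of the 5 slow-fibre genes (median 0.75) that passed the filter out of 10, of which Mybpc1 stood at 5.22, 0.182 and 30.8 CPM in RWAT. The difference between the fibre types was not tested. In RWAT 2, the muscle genes Mybpc2, Trim63 and Mb were at 0, and Trim63 was at 0 in the 3 IWAT libraries. Its 123 RWAT counts put it at least 42.9-fold higher, against a floor of 3 counts over the IWAT group, and the lower limit of the 95% exact counting interval was 34.4-fold. With Trim63 at this bound the list's median was 5.42. Without RWAT 1 and RWAT 3 the median was 0.30, with RWAT 2 alone in its depot, and Acta1 had a log2 fold change of -0.77. In the same fit the branched-chain amino acid, macrophage and cell cycle medians were -2.01, 1.07 and 1.87. With the skeletal muscle score as a covariate, 0 genes were called and these 3 medians were -2.0, 1.23 and 2.01.

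Stroma and vessels had a few members of their own. Of 26 adipocyte progenitor genes, 11 were lower and 0 higher in RWAT at an unadjusted edgeR p below 0.05 (median -0.64), among them Dcn (decorin) at 422, 254 and 434 CPM against 1045, 1074 and 463 CPM and Gsn (gelsolin) at 2672, 829 and 1678 CPM against 6890, 6288 and 7910 CPM. Zfp423 and Ebf1, factors of adipocyte commitment, had log2 fold changes of -1.14 ± 0.41 and -1.0 ± 0.33. Of 34 matrix genes, 1 was higher and 2 lower (median 0.13). Timp3 and Mmp2 had log2 fold changes of -1.31 ± 0.37 and -1.02 ± 0.27, and Timp1, an inhibitor of matrix proteases, stood at 45.1, 131 and 53.2 CPM against 2.62, 22.1 and 18.2 CPM. Tek, the endothelial receptor for angiopoietins, stood at 35.5, 23.9 and 27.4 CPM in RWAT and 75.6, 87.2 and 58.8 CPM in IWAT (log2 fold change -1.35 ± 0.26, edgeR BH-adjusted p = 0.125). Of 18 endothelial genes, 3 were lower and 0 higher, with a median of -0.25, and the 3 were 6 without IWAT 1 and 1 without IWAT 2 or IWAT 3. Of 7 lymphatic endothelial genes tested, 1 was higher and 1 lower in RWAT at an unadjusted edgeR p below 0.05. The lower one was Reln, a glycoprotein of lymphatic endothelium, at 3.58, 1.27 and 1.67 CPM against 13.2, 11.9 and 5.47 CPM. The higher one was Pdpn, at 89.9, 126 and 108 CPM against 25.4, 63.8 and 33.6 CPM.

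Among growth regulators under imprinting, H19 and Mest had the smallest p and stood in opposite directions. H19, a maternally expressed RNA, stood at 56.6, 42.6 and 53.6 CPM in RWAT and 4.45, 12.8 and 11.5 CPM in IWAT (log2 fold change 2.41 ± 0.50, edgeR BH-adjusted p = 0.125). Mest, a paternally expressed gene that is linked to fat mass, stood at 52.1, 41.7 and 55.5 CPM against 114, 90.8 and 220 CPM (log2 fold change -1.51 ± 0.37, edgeR BH-adjusted p = 0.134). The depots were apart in both. Of 16 imprinted growth genes 1 was higher (6.25%) and 3 lower (18.8%) at an unadjusted edgeR p below 0.05, with a median of -0.17. Of all genes, 9.63% were higher and 10.1% lower. Of 43 Wnt, BMP and TGF-beta genes, 2 were higher and 9 lower (median -0.08), and the 9 ran from 4 to 9 over left-out libraries. Among them, Bmp4 and Wnt5b, secreted signals of adipocyte development, had log2 fold changes of -1.49 ± 0.48 and -1.48 ± 0.39.

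Genes of other tissues and cells were checked because the depots lie beside different organs. Of 20 kidney genes, 4 passed the filter on low counts. At an unadjusted edgeR p below 0.05, 1 of these was higher in RWAT (Lrp2, log2 fold change 2.85 ± 1.02, with overlap) and 0 lower. Of 15 adrenal genes, 5 passed the filter. At the same p, 1 was higher (Chga, log2 fold change 4.36 ± 1.81) and 2 were lower (Fdx1, -1.31 ± 0.37, and Cyp11a1, -2.44 ± 0.98). All 24 T and NK cell genes tested gave 1 higher and 1 lower in RWAT at an unadjusted edgeR p below 0.05. The B cell list summed to 211, 153 and 229 CPM in RWAT and 1360, 315 and 311 CPM in IWAT, so that IWAT 1 stood apart, with 2 of 18 genes higher and 3 lower. Ebf1, also a progenitor gene, was among the 3 lower. It stood at 91.1, 68.7 and 126 CPM in RWAT and 166, 245 and 163 CPM in IWAT. Ebf1 thus made up most of the sum in IWAT 2 and IWAT 3. In the lymph node list of 7 tested genes, 3 were higher and 0 lower, and Cxcl13, a chemokine of follicles, was at 3.62, 1.59 and 1.82 CPM against 7.91, 4.33 and 5.77 CPM. Bst1, an ectoenzyme of stromal and myeloid cells, stood at 74.4, 61.1 and 41.0 CPM in RWAT and 9.15, 14.8 and 16.2 CPM in IWAT (log2 fold change 2.13 ± 0.41, edgeR BH-adjusted p = 0.125). Of 19 genes of dendritic, mast and neutrophil cells, 2 were higher and 5 lower at the same p. The count of 5 was 1 without RWAT 1, RWAT 2 or IWAT 1 in turn. The higher ones were S100a9 and S100a8, with log2 fold changes of 2.82 ± 0.86 and 2.30 ± 0.74. The depots overlapped in S100a8, and in S100a9 RWAT 3 (3.41 CPM) was barely above IWAT 3 (3.35 CPM). Tpsb2 and Cma1, proteases of mast cells, were among the lower ones, with overlap, and were highest in IWAT 1 at 61.9 and 68.4 CPM. Of 15 Schwann cell genes, 1 was higher and 5 lower (median -1.21), with 1 lower and a median of -0.70 without IWAT 2. Cdh19 and Ngfr, both high in IWAT 2 and chosen after their values were seen, stood there at 12.4 and 10.5 CPM, against 2.75 and 0.915 CPM in IWAT 1 and 2.71 and 1.47 CPM in IWAT 3. Sox10, their defining transcription factor, stood at 0.338, 0.227 and 0.227 CPM against 0.785, 2.32 and 1.18 CPM. Of 10 sympathetic neuron genes tested, 2 were higher in RWAT (Npy and Chga) and 0 lower at an unadjusted edgeR p below 0.05. The list's median was 0.40, and 6 members had a log2 fold change above 0. The count of 2 ran from 0 to 2 over left-out libraries. Npy, a transmitter of sympathetic nerves, stood at 8.07, 14.5 and 8.41 CPM against 0, 0.937 and 5.35 CPM (log2 fold change 2.30 ± 1.00, edgeR BH-adjusted p = 0.237). Gap43 of the same list had a log2 fold change of -1.21 ± 0.75. Of the 13 epididymis genes, 0 passed the filter on low counts. The part of these cells in the other results was not tested.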

How the data were processed

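Ribosomal RNA was removed from total RNA, and single-end reads of 75 bp were sequenced, per the labels' protocols. Per the submitters' processing notes, the authors used Trimmomatic 0.36, RSEM 1.3.0 and DESeq2 1.10.1 on GRCm38.p4. The aligner and annotation release are not given in the sources used here. Each deposited table, per the file headers, holds an RSEM expected count per gene, an estimated read count with no scaling between libraries. The deposited TPM, an abundance scaled by effective length and library, served as an alternative for shares. The deposited effective length and the posterior standard deviation of the count, both other units per the file headers, served the length offset and a check of reads shared between copies.

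Expected counts were rounded. Of 47729 genes, 47310 were found in GENCODE M21, the source of symbols. filterByExpr of edgeR 4.0.16 (minimum count 10) left 18942. Libraries were scaled by TMM factors of 0.846 to 1.14, and 1 model with a coefficient per depot was fitted to all 12 libraries (biological coefficient of variation 0.385), tested two-sided by quasi-likelihood with Benjamini-Hochberg adjustment and a threshold of 0.05. The SE beside an edgeR log2 fold change is its absolute value divided by the square root of the quasi-likelihood F statistic. It was thus derived from the test and not estimated separately. R 4.3.3, limma 3.58.1 and DESeq2 1.42.0 served the alternatives. A list's score averages log2 CPM over its tested members (prior count 2). Of 1085 memberships of 54 lists, 1081 matched. At these depths, 3 counts equal 0.142 to 0.232 CPM, and intervals and floors cover counting error only, since no molecular identifiers are described. The test was also run on simulated counts with known changes, and the outcome of that run is not given here. No 2 libraries of a depot agreed within sampling noise (chi-square per degree of freedom 52 to 317).

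Named genes followed a rule. As no gene was called, it took the 20 genes with the smallest p, no overlap and at least 5 CPM in the higher depot, up to 4 members of each list by p, and Ucp1, Lep, Adipoq, Adrb3, Tbx15, Hoxa10, Hoxc10, Wt1, Acta1 and Msln. Of the 20 genes, 1 is not reported here. The rule's part on genes most like the first called gene could not be applied. The members, lists and tests were chosen with earlier results of these data known.

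Alternatives were RLE and upper-quartile scaling, TMM without mitochondrial and ribosomal RNA genes or without muscle genes, no filter or 1 CPM in 3 libraries, DESeq2, limma-voom, the 6 libraries alone, a replicate block, a length offset, a log2 fold change of at least 1, muscle, mesothelial or adipocyte scores as covariates, and leaving out each library or RWAT 1 and RWAT 3. A fit of the 9 white fat libraries and a robust dispersion were chosen after seeing the data.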

Additional observations from a re-analysis of the deposited data

How the results depend on the processing

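The count of genes called was 0 in the fit reported and in 23 of 29 other fits. It was 1159 by DESeq2, 5 of 32271 with no filter on low counts (each higher in RWAT, among them Clec4n, Cd300ld, Ddit4l and Bcl2a1b), 2 of 17827 with the 6 libraries alone and 4 with the mesothelial score as a covariate (Cd5l higher, and Gm4963, Mup7 and Gm12804 lower, these 3 at 0 in RWAT). In IWAT, Gm4963 stood at 29.4, 0 and 0 CPM, Gm12804 at 1.18, 0 and 0 CPM and Mup7 at 3.01, 0.669 and 0.353 CPM. Gm4963 and Gm12804 were thus found in IWAT 1 alone among the 6 libraries. Leaving out 1 library gave 0 to 2 called genes, with 2 without RWAT 1 (Wt1 and Ddit4l) and 1 without RWAT 2 (Actn3, edgeR BH-adjusted p = 0.0494). The count at a log2 fold change of at least 1 was 0. The cause of these differences was not tested. The number at an unadjusted edgeR p below 0.05 was 3745, and was 1811 without RWAT 2, 2437 without IWAT 1 and 1878 with the adipocyte score.

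Of 149 genes followed through these fits, 141 kept their direction in each. With the skeletal muscle score Acta1 was -0.99 and Mybpc1 -0.70, and without RWAT 1 and RWAT 3 they were -0.77 and -0.025. With the mesothelial score Msln was -0.97, Upk3b -0.51 and Lrp2 -0.27. With the adipocyte score Adipoq was 0.57, Adrb3 0.90 and Lep 1.34. A gene passed the threshold in 115 combinations of gene and fit, 104 of them by DESeq2. The differences in share ranged over left-out libraries from 0.06611 to 0.443 points for muscle, -0.0918 to -0.04935 for mesothelial and -0.551 to -0.245 for mitochondrially encoded genes.

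With the replicate number as a block, no call was made (0 genes), and the number at an unadjusted edgeR p below 0.05 was 3358. Deviations from the depot means correlated by 0.290, 0.120 and -0.144 between RWAT and IWAT libraries of the same number, so the numbers were not taken as pairs, and not every library correlated best with its own number. With 3 libraries per depot, the exact permutation test cannot go below 0.1. The depth of RWAT 3 limits genes under about 0.232 CPM.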
